A study of Homo sapiens with 18 samples.

Results

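Cells of U251, an established human glioblastoma line, that had been given a negative-control siRNA (siNeg) were followed from 24 h to 48 h after transfection. The comparison rests on the 2 arrays titled siNeg at 48 h and the 2 titled siNeg at 24 h, 4 of the 18 arrays of the series, chosen by their titles and not by any measured value. The series holds 9 groups of 2 arrays: untransfected cells (Control), siNeg cells and cells given an siRNA against the kinase MPS1 (siMPS1), each sampled 6, 24 and 48 h on. The labels give a dose of 2 pmol siRNA, all groups are the same cell line, Control cells received no treatment, and total RNA was labelled with biotin for Affymetrix human gene arrays. Neither the negative siRNA's sequence nor the reagent is named in the labels, and they do not say whether the arrays within a group represent separate cultures. The p-values therefore measure only the spread between arrays, which may be technical. The same interval in the 4 Control arrays at 24 h and 48 h served as the comparison, and the 2 intervals share no array.

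A cultured cell line moves between stress and growth programs as medium is used and cells become dense. The unfolded protein response senses misfolded protein in the endoplasmic reticulum and raises chaperones through the factors ATF6 and XBP1. The linked integrated stress response works through ATF4, which raises ATF3, DDIT3 and genes of amino acid supply. NRF2, a transcription factor activated by oxidants, raises HMOX1, AKR1C and glutathione genes. Genes of DNA synthesis are read through E2F sites, and many mitotic genes through the cell cycle homology region (CHR). Secreted matrix metalloproteinases, which glioma cells use to cut matrix, are classic targets of the AP-1 factors.

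The promoters of genes that carry these results are shown here for the elements they hold. Sequences are from RefSeq (GRCh38.p14), where 6545 of the 7828 genes tested had a promoter entry, and the 250 bases before each start were searched on both strands. The endoplasmic reticulum stress element (ERSE, searched as CCAAT, then any 9 bases, then CCACG) was in 10 of the 6545 promoters, 0.153%. Of those 10, 6 belonged to the 23 promoters of the unfolded protein response list (26.1%). HERPUD1, DNAJB9 and MANF, described below, had a promoter entry with no match to these letters. Windows run 5′ to 3′ on the gene's strand with the fixed letters of the element in capitals, and in CRELD2, SERP1 and the second HSP90B1 copy the element lies on the other strand.

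HSPA5 (chr9:125241371-125241429, minus strand): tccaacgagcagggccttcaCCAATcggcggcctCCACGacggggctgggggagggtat
HSP90B1 (chr12:103930196-103930359, plus strand): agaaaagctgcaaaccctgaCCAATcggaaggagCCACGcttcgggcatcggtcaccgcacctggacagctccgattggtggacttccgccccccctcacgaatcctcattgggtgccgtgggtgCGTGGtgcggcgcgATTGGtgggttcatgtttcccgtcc
XBP1 (chr22:28800583-28800641, minus strand): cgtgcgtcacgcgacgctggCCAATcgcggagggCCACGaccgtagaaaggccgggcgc
CRELD2 (chr22:49918534-49918592, plus strand): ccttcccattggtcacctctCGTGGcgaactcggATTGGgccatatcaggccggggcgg
FICD (chr12:108515103-108515161, plus strand): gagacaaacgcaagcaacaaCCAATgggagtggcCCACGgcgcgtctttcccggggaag
SERP1 (chr3:150546690-150546746, minus strand): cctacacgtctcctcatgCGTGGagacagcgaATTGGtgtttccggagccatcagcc
CANX (chr5:179698758-179698816, plus strand): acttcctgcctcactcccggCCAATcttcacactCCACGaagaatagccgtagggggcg

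In siNeg cells 7 of these 10 ERSE genes were lower at 48 h by the test used for all genes (CANX, CRELD2, FICD, HSP90B1, HSPA5, SERP1 and XBP1), against 15.6% of all genes tested, and 0 were higher. The other members of the 10 did not pass: CALR changed by -0.23 on the log2 scale, TRIM5 by -0.23 and ALG12 by 0.35. ALG12 and CRELD2 lie back to back and share the same element on the same bases, yet CRELD2 fell by 0.69 and ALG12, a dim gene whose arrays overlapped, did not pass. The call of CANX was lost without siNeg 24 h replicate 1 (-0.24), siNeg 24 h replicate 2 (-0.22) or siNeg 48 h replicate 2 (-0.18), and that of SERP1 without siNeg 24 h replicate 1 (-0.30) or siNeg 48 h replicate 2 (-0.26). In Control cells SERP1 changed by 0.01 and XBP1 by -0.14, neither passing, while the other 5 fell. CALR also fell there (-0.45, adjusted p = 0.0023), where 11.6% of all genes were lower. Of the 10 genes only HSP90B1 (-0.28) and XBP1 (-0.61) had a called difference between the intervals.

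Some other sites are shown for genes that lead other groups. MMP10 holds an AP-1 site (TGANTCA, in 3.87% of promoters), PLK1 and KIF4A a CHR (TTTGAA, in 8.27%), and MCM6 4 overlapping matches to an E2F site (TTTNGCGC, in 2.73%). The CHR was in 25 of 45 promoters of the mitosis list (55.6%) and the E2F site in 10 of 39 of the replication list (25.6%). Over all genes called higher in siNeg the CHR was in 7.86% of promoters, close to the share of all genes. Also searched but not shown were an ATF4 site (TGATGNAA) and the antioxidant response element (TGACNNNGC). They were in 1.3% and 12.5% of all promoters, and in 1.07% and 15.2% of those of genes lower in siNeg. The element was in 3 of 16 promoters of the oxidative stress list. MMP1 and MMP3 were not among the promoters searched. A match describes the letters and does not show that a factor binds there.

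MMP10 (chr11:102780669-102780715, minus strand): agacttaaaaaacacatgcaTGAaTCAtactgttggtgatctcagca
PLK1 (chr16:23678840-23678885, plus strand): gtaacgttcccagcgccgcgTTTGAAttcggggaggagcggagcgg
KIF4A (chrX:70290050-70290095, plus strand): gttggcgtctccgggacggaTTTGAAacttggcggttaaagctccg
MCM6 (chr2:135876502-135876615, minus strand): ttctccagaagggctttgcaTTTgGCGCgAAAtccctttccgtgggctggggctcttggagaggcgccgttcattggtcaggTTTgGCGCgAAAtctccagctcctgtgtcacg

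Values are log2 of the deposited signal plus 3, so fold changes of low genes are understated. The siNeg arrays of 24 h and of 48 h differed from each other in control probe sets that are not genes of interest. The mean of the 18S ribosomal RNA probe sets was 11.16 and 11.15 at 24 h and 9.45 and 9.50 at 48 h in siNeg, against group means of 10.18 and 10.17 in Control, so siNeg lay above Control at 24 h and below it at 48 h. The dap spike, a bacterial transcript, read 7.203 and 7.11 at 24 h and 5.54 and 5.80 at 48 h in siNeg, while its group mean in Control went from 6.80 to 7.49. The lys, phe and thr spikes were also lower at 48 h in siNeg and higher at 48 h in Control. In 18S and all these spikes siNeg at 48 h had the lowest mean of the 9 groups. The 18S mean of siNeg at 24 h, 11.15, was close to that of siMPS1 at 48 h, 11.13, and its spike means lay within the range of the other groups. The 3′ minus 5′ signal of ACTB, a sign of RNA quality, was 0.412 and 0.4 at 24 h and 0.097 and 0.136 at 48 h in siNeg, and its group mean in Control went from 0.308 to 0.204. Both siNeg arrays of a time agreed in these readings. They moved with the time points in siNeg and their part in the results below was not tested, and array composition and time cannot be told apart. Replicate arrays correlated from 0.983 to 0.990 over the series.

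The defining markers of the line were mixed. VIM, CD44, GJA1 and ALDH1A3 were above 10 on the log2 scale in siNeg arrays, and GFAP, S100B and AQP4, markers of mature astrocytes, were dim, while the neuronal markers NEFL and TUBB3 were also above 10. The summed signal of the 18 glial and glioma markers on the array was 10980 and 11110 in siNeg at 24 h and 12130 and 11320 at 48 h. Blood and endothelial markers summed to between 28.7 and 69.5 over the same arrays, the defining blood marker PTPRC being dim. The summed signal of neuronal markers was 3489 and 3379 at 24 h and 4457 and 4168 at 48 h in siNeg, with 2 of 7 measured markers called higher. That of epithelial markers was 862.6 and 817 at 24 h and 1129 and 1001 at 48 h, with KRT8 and KRT18 called higher, CLDN4 lower and EPCAM and CDH1 dim. In Control the neuronal sums went from 3233 and 3464 to 3849 and 3893 and the epithelial sums from 891.2 and 900.4 to 1066 and 1015. The part of these shifts in the results below was not tested. TTK, the gene of MPS1, read 6.86 and 6.89 at 24 h and 6.72 and 6.92 at 48 h in siNeg, a change of -0.05 (SE 0.21, adjusted p = 0.877).

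Of 7828 genes tested with limma, 2287 differed between 48 h and 24 h in siNeg at an adjusted p under 0.05 (29.2%), 1067 higher (13.6%) and 1220 lower (15.6%). A change of at least 2-fold was reached by 175 of them, 64 higher and 111 lower. In Control cells 1533 genes differed (19.6%), 626 higher (8%) and 907 lower (11.6%). These shares of all genes are the background for the list counts below. The median change over all genes was -0.0078 in siNeg and -0.0508 in Control. Centring every array on its median moved these medians to 0.03 and 0.092 and gave 1216 higher and 981 lower in siNeg and 1420 higher and 396 lower in Control, so the balance of rises and falls over all genes is not fixed by these data. Without siNeg 48 h replicate 1 the count was 1461 and without siNeg 24 h replicate 1 it was 1496.

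The difference between the intervals was tested directly, as siNeg 48 h minus 24 h less Control 48 h minus 24 h. It was called for 810 genes (10.3%), 473 with a more positive change in siNeg (6.04%) and 337 with a more negative one (4.31%). After median centring the split was 265 and 567. Leaving out 1 array gave counts from 396 (without siNeg 48 h replicate 1) to 784, with 405 without siNeg 24 h replicate 1, 417 without Control 24 h replicate 2, 495 without Control 48 h replicate 1 and 539 without siNeg 24 h replicate 2. Of the 2287 genes called in siNeg, 746 were called in the same direction in Control, and for 666 of these the difference was not called. For 591 of the 2287 the difference was called, and 57 genes were called in opposite directions in the 2 intervals. Among the 810, siNeg and Control means were farther apart at 48 h than at 24 h for 636 (78.5%, against 59.4% of all genes), with a median gap of 0.205 at 24 h and 0.421 at 48 h. Counts of differences in the lists below are to be read against 6.04% of all genes more positive and 4.31% more negative.

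**Figure D1:**
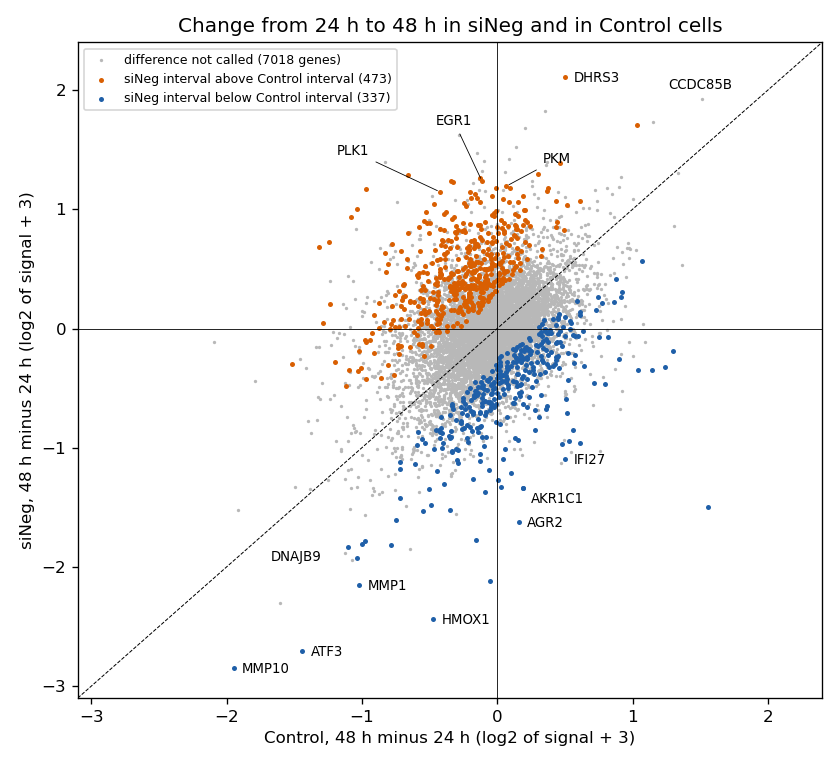
Each point is 1 of 7828 genes, with its change from 24 h to 48 h in Control (x axis) and in siNeg (y axis), both in log2 of signal plus 3, and the dashed line marks equal change. The 473 genes in orange and 337 in blue are those whose intervals differed, and HMOX1 lies far below the line at -2.44 in siNeg and -0.48 in Control.

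The unfolded protein response fell as a group in siNeg cells. Of its 25 measured members 19 were lower, 0 were higher and the median change was -0.56, against -0.0078 over all genes. HERPUD1, which links misfolded proteins to degradation at the endoplasmic reticulum, read 10.18 and 10.06 at 24 h and 8.32 and 8.24 at 48 h. That is a 3.57-fold fall (log2 change -1.83, SE 0.06, adjusted p = 3.02e-13), from a level that had been 9.51 at 6 h. DNAJB9, a co-chaperone of the lumen, read 8.92 and 9.01 at 24 h and 7.03 and 7.06 at 48 h, a 3.79-fold fall. The chaperone HSP90B1 went from 10.68 and 10.59 to 9.80 and 9.74, and MANF, a secreted survival factor of stressed cells, from 9.50 and 9.52 to 8.70 and 8.64. In all 4 genes both 48 h arrays lay below both 24 h arrays, as they did in 1 or the other direction for 63.9% of all genes tested.

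Control cells showed falls in the same list, 16 of 25, with a median of -0.42, against 11.6% of all genes called lower there. The difference was called more negative in siNeg for 7 of the 25 members and more positive for 0. HERPUD1 fell by 1.11 in Control (adjusted p = 5.09e-09) and the difference was -0.73 (SE 0.09, adjusted p = 3.93e-05). DNAJB9 fell by 1.03 in Control, with a difference of -0.89, and MANF fell by 0.42, with a difference of -0.42. XBP1, named here for its ERSE, read 7.63 and 7.66 at 24 h and 6.76 and 7.02 at 48 h in siNeg, a fall of 0.76 against a Control change of -0.14, and the difference was -0.61 (adjusted p = 0.00825). That difference was -0.49 and not called without siNeg 48 h replicate 1.

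Genes of the ATF4 branch were called in both directions. Of 31 measured members 15 fell and 5 rose, with a median of -0.20, and 64.5% were called against 29.2% of all genes. The transcription factor ATF3 had the second largest fall of the interval, from 8.14 and 8.07 to 5.34 and 5.45, a 6.53-fold change (log2 change -2.71, SE 0.09, adjusted p = 3.02e-13). DDIT3, the factor CHOP, went from 8.67 and 8.59 to 6.94 and 6.76, and CEBPB, a partner of ATF4, from 9.70 and 9.71 to 8.72 and 8.74. SLC38A2, a transporter of neutral amino acids, fell from 10.24 and 10.27 to 9.41 and 9.41. The members that rose were the enzymes of serine synthesis PHGDH (log2 change 0.55), PSAT1 (0.69) and PSPH (0.39) and the amino acid transporters SLC7A5 (0.41) and SLC1A5 (0.82). The call of PSPH was lost without siNeg 24 h replicate 1 (0.39), siNeg 24 h replicate 2 (0.39) or siNeg 48 h replicate 2 (0.25).

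In Control cells 14 members of the ATF4 list fell and 2 rose. The difference was more negative in siNeg for 9 and more positive for 3, and those 3 no longer passed after median centring or without siNeg 24 h replicate 1. ATF3 fell by 1.44 in Control, so its fall in siNeg exceeded that by 1.27 (adjusted p = 7.14e-06). For DDIT3 the Control fall was 0.98 and the difference -0.80 (adjusted p = 0.000459), for CEBPB the difference was -0.38 and for SLC38A2 -0.42. DDIT4, an inhibitor of mTORC1 in the same list, fell 3.51-fold in siNeg, from 8.57 and 8.28 to 6.51 and 6.71.

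**Figure D2:**
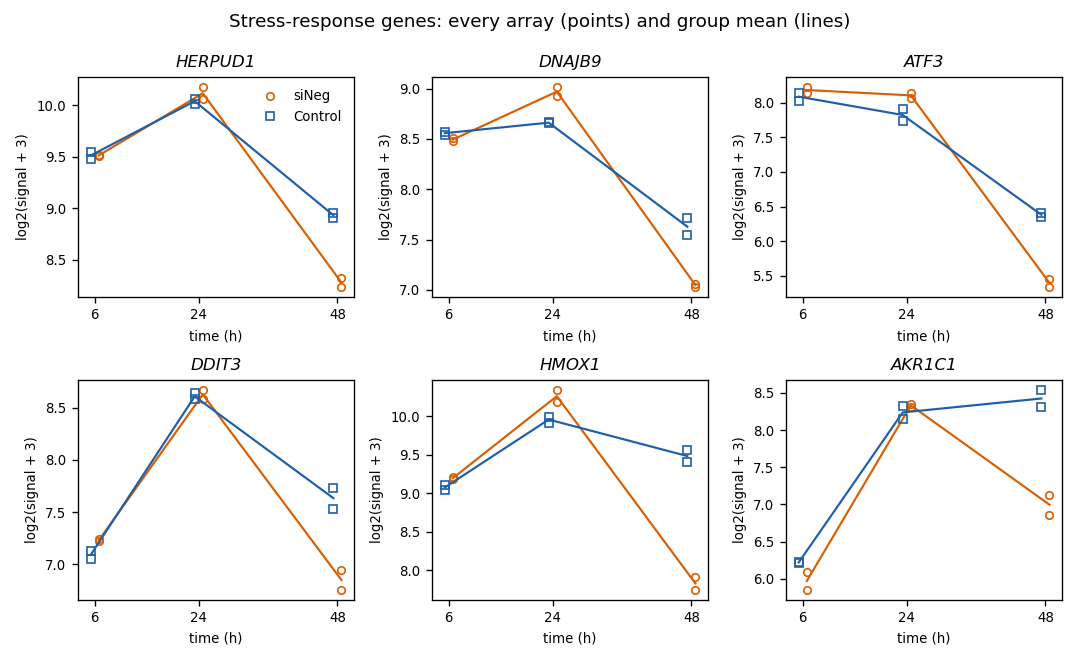
Log2 of signal plus 3 of 6 stress-response genes at 6, 24 and 48 h in siNeg (orange circles) and Control (blue squares), with every array as a point, lines through the group means and points set slightly apart in time. At 48 h both siNeg arrays lie below both Control arrays in each of the 6 genes.

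HMOX1, the haem-degrading enzyme induced by oxidants, had the smallest adjusted p of all genes for the difference from Control. It read 10.19 and 10.34 at 24 h and 7.75 and 7.91 at 48 h in siNeg, a 5.41-fold fall (log2 change -2.44, SE 0.08, adjusted p = 3.02e-13). Control arrays read 9.92 and 9.998 at 24 h and 9.56 and 9.41 at 48 h, a 1.39-fold fall. The difference was -1.96 (SE 0.11, adjusted p = 4.83e-09). At 6 h the group means had been 9.20 in siNeg and 9.08 in Control.

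Other targets of NRF2 moved in part with HMOX1. Of 22 measured members of the oxidative stress list 10 fell, 2 rose and the median was -0.19 in siNeg, where Control had 3 lower, 4 higher and a median of 0.07. The share called in siNeg was 54.5%, against 29.2% of all genes. AKR1C1, an aldo-keto reductase, went from 8.35 and 8.31 to 7.13 and 6.86 in siNeg and from 8.15 and 8.33 to 8.54 and 8.31 in Control, a difference of -1.52 (adjusted p = 1.1e-05). AKR1C2 differed by -1.53, but the AKR1C genes are near-identical copies and their probe sets may read each other. MAFG, a partner of NRF2, fell by 0.71 and GCLC, which makes the first step of glutathione synthesis, by 0.69. The 2 that rose were PGD (0.44) and EPHX1 (0.58), and EPHX1 was not called without siNeg 24 h replicate 1 (0.44) or siNeg 48 h replicate 1 (0.40). The difference was more negative in siNeg for 7 of the 22 and more positive for 0, and for 4 without siNeg 24 h replicate 1, siNeg 48 h replicate 1 or Control 24 h replicate 2.

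Autophagy and lysosome genes leaned the same way, with 16 of 38 lower, 3 higher and a median of -0.20. The share called was 50%, against 29.2% of all genes. WIPI1, which acts in autophagosome formation, fell 3.50-fold, from 7.62 and 7.49 to 5.66 and 5.84, and its difference from Control was -0.81 (adjusted p = 0.003). The lysosomal protease CTSZ went from 8.30 and 8.25 to 7.74 and 7.64 in siNeg and from 8.31 and 8.38 to 8.54 and 8.43 in Control, a difference of -0.72. Its other, dim probe set gave a difference of 0.005 (adjusted p = 0.998). GLA, a lysosomal galactosidase, fell by 0.56 and GABARAPL1, of the autophagosome membrane, by 0.89. The members that rose were the cathepsins CTSD (0.54) and CTSA (0.31) and GABARAP (0.24). CTSA was not called without siNeg 24 h replicate 1 (0.22) or siNeg 48 h replicate 1 (0.26), nor was GABARAP (0.23 and 0.21), and the list then counted 10 lower and 1 higher, or 9 lower and 1 higher.

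Secreted metalloproteinases gave 3 of the 5 largest falls. MMP10, stromelysin-2, read 7.30 and 7.33 at 24 h and 4.36 and 4.57 at 48 h, a 7.21-fold fall (log2 change -2.85, SE 0.12, adjusted p = 8.04e-12). MMP3, stromelysin-1, went from 6.61 and 6.68 to 4.28 and 4.41, and MMP1, interstitial collagenase, from 7.82 and 7.96 to 5.69 and 5.78. All 3 also fell in Control, by 1.95, 1.60 and 1.02. The difference was -0.90 for MMP10 (adjusted p = 0.00235) and -1.13 for MMP1 (adjusted p = 0.00232), and for MMP3 it was -0.70 and did not pass (adjusted p = 0.121).

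Plasminogen activators moved the opposite way. PLAU, urokinase, rose from 9.55 and 9.60 to 10.46 and 10.47 (log2 change 0.89, SE 0.06, adjusted p = 4.6e-09), and PLAT, tissue plasminogen activator, from 7.17 and 7.06 to 8.10 and 8.42. The difference from Control was 0.45 for PLAU and 0.78 for PLAT. MMP2, gelatinase A, rose by 0.52 in siNeg and fell by 0.39 in Control, a difference of 0.90 (adjusted p = 0.000803). ADAM19 rose by 0.51 and TIMP2, an inhibitor, by 0.78. Over the 25 proteases and inhibitors 5 rose and 7 fell in siNeg, against 3 and 8 in Control. These were 48% and 44% of the list, where 29.2% and 19.6% of all genes were called.

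**Figure D3:**
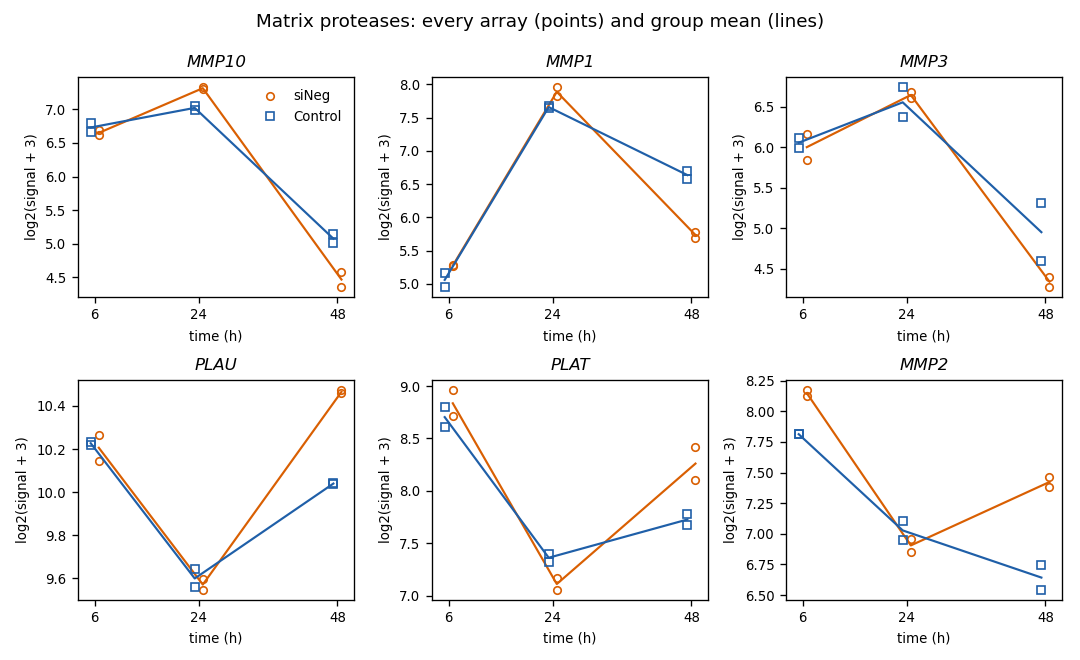
Log2 of signal plus 3 of 6 secreted proteases at 6, 24 and 48 h in siNeg (orange circles) and Control (blue squares), with every array as a point, lines through the group means and points set slightly apart in time. MMP10, MMP1 and MMP3 drop after 24 h in both, while MMP2 rises in siNeg to 7.38 and 7.46 and falls in Control.

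Matrix proteins were divided. Of 42 measured basement membrane and interstitial matrix genes 10 rose and 11 fell in siNeg, with a median of 0.0003, where Control had 3 higher and 15 lower, with a median of -0.18. Called were 50% in siNeg and 42.9% in Control, against 29.2% and 19.6% of all genes. LOXL1, a crosslinking enzyme of elastic fibres, rose from 6.92 and 6.80 to 7.90 and 7.99 while Control read 7.18 and 7.23 and then 7.26 and 7.23, a difference of 1.04 (adjusted p = 0.0001). The collagen crosslinker LOX fell by 1.37. Its other probe sets changed by -0.785 (mean 6.842, adjusted p = 6.17e-05) and, in the dimmest, by 0.121 (mean 4.005, adjusted p = 0.866). EFEMP1, a fibulin, rose from 10.04 and 10.16 to 10.98 and 10.85, with a difference of 0.64. Its other probe set gave a difference of 0.213 (adjusted p = 0.291). COL6A1 fell by 0.39 in siNeg and by 0.76 in Control by its brightest probe set, but its other probe sets changed by 0.641 (adjusted p = 0.0222) and -1.128 (adjusted p = 0.00426) in siNeg. The siNeg call was lost with the mean of its probe sets (-0.292), and that of the difference after median centring (0.267), so no direction is settled for this gene.

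The other matrix genes that rose were COL4A2 (0.43), LAMA4 (0.83), FBN1 (0.38), LOXL2 (0.39), COL5A2 (0.39), FBLN1 (0.47), THBS1 (0.29) and LAMA5 (0.35). Other FBLN1 probe sets changed by -0.022 (adjusted p = 0.963) and 0.999 (adjusted p = 0.0938). Those of THBS1 rose by 0.687 (adjusted p = 1.19e-05) and 0.857 (adjusted p = 8.07e-06). COL4A2, a chain of basement membrane collagen, read 7.55 and 7.59 and then 7.96 and 8.04 in siNeg, and fell by 0.35 in Control, a difference of 0.78 (adjusted p = 7.69e-05). Without siNeg 48 h replicate 2 the list counted 7 higher and 3 lower. COL5A2 then had 0.36, THBS1 0.15, FBLN1 0.52 and LAMA5 0.39, none called. Without siNeg 24 h replicate 1 the uncalled were COL5A2 (0.40), FBLN1 (0.50) and LOXL2 (0.31). Without siNeg 24 h replicate 2 they were COL5A2 (0.37), FBLN1 (0.44), THBS1 (0.23) and LAMA5 (0.15), and without siNeg 48 h replicate 1 FBLN1 (0.42) and LAMA5 (0.30). The difference was more positive in siNeg for 10 matrix genes and more negative for 2, and for 7 and 3 after median centring.

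Immediate early and AP-1 genes, which respond to growth signals within minutes, were called lower more often than higher, 18 against 3 of 37, with a median of -0.32, and Control had 15 lower and 2 higher. DUSP5 and DUSP1, phosphatases of the MAP kinases, fell by 0.99 and 0.91, and the small Maf factor MAFF by 0.74. EGR1 was the exception among the leading members, rising from 5.96 and 6.14 to 7.26 and 7.30 in siNeg (log2 change 1.24, adjusted p = 1.18e-06) while Control read 6.11 and 6.21 and then 5.79 and 6.30. Its difference was 1.35 (SE 0.18, adjusted p = 0.000139). The AP-1 subunit FOSL1 also rose, by 0.55, with a difference of 0.76. For these 2 of the 37 members the difference was more positive in siNeg, and for 4 it was more negative. SPRED2 rose by 0.34 and was not called without siNeg 24 h replicate 2 (0.17), siNeg 48 h replicate 1 (0.37) or siNeg 48 h replicate 2 (0.31).

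Genes of DNA replication rose in siNeg. Of 44 measured members 23 were higher and 1, ORC6 (-0.24), was lower, with a median of 0.39. The helicase subunit MCM6 went from 7.86 and 7.61 to 8.78 and 8.84 (log2 change 1.07, SE 0.10, adjusted p = 4.63e-07), back to near its 6 h mean of 8.75. MCM2 went from 8.28 and 8.27 to 9.02 and 8.98, the uracil glycosylase UNG from 7.68 and 7.62 to 8.36 and 8.52, and the primase subunit PRIM1 from 6.41 and 6.44 to 7.47 and 7.27. Control had 13 higher and 2 lower, with a median of 0.14, and MCM6 rose there by 0.61. The difference was called for 6 of the 44, each more positive in siNeg, among them MCM2 at 0.52 (adjusted p = 0.00273). That count was 3 without Control 24 h replicate 2 or Control 48 h replicate 1.

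The mitotic genes that were called were mostly higher in siNeg and all lower in Control. Called members made up 28.3% of the list in siNeg, near the 29.2% of all genes, and 26.4% in Control, against 19.6%. In siNeg 13 of 53 measured members rose and 2 fell, with a median of 0.01, and in Control 0 rose and 14 fell, with a median of -0.16. The difference was more positive in siNeg for 13 (24.5%, against 6.04% of all genes) and more negative for 0. PLK1, the polo-like kinase that drives mitotic entry, read 5.83 and 5.80 at 24 h and 7.03 and 6.90 at 48 h in siNeg, and 6.33 and 6.16 and then 5.93 and 5.72 in Control. Its change was 1.14 in siNeg (SE 0.18, adjusted p = 9.75e-05) and -0.42 in Control (adjusted p = 0.103), a difference of 1.56 (adjusted p = 0.000763). KIF4A, a chromosome kinesin, rose from 8.16 and 8.20 to 8.56 and 8.64, with a difference of 0.58 (adjusted p = 0.003). TPX2, a spindle assembly factor, rose by 0.61, and PTTG1, securin, by 0.36.

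ASPM (-0.31) and SMC4 (-0.21) were the mitotic genes that fell. Neither was called without siNeg 24 h replicate 2 (-0.27 and -0.23), siNeg 48 h replicate 1 (-0.24 and -0.16) or after median centring, and SMC4 was not called without siNeg 24 h replicate 1 (-0.19). The list counted 8 higher and 1 lower without siNeg 24 h replicate 1, 9 and 0 without siNeg 24 h replicate 2, and 9 and 0 without siNeg 48 h replicate 1. The difference was called for 7 to 8 members without siNeg 48 h replicate 1, siNeg 24 h replicate 1 or Control 24 h replicate 2, and for 8 after median centring, all more positive. Among p53 targets and cell cycle inhibitors 9 of 21 fell and 4 rose (PLK2, TP53I3, CCNG1 and DDB2), and this was 6 and 2 without siNeg 24 h replicate 1 and 5 and 2 without siNeg 48 h replicate 1. CCNG1 was not called without those arrays (0.26 and 0.27), DDB2 without siNeg 24 h replicate 1 (0.51) or siNeg 48 h replicate 2 (0.52), and TP53I3 without siNeg 24 h replicate 2 (0.34) or siNeg 48 h replicate 1 (0.30). CDKN1A, the inhibitor p21, went from 7.16 and 7.15 to 6.12 and 5.54, and CDKN1B, p27, from 7.69 and 7.58 to 6.89 and 7.02. Both also fell in Control, by 1.04 and 0.53, and neither difference passed. With all arrays 61.9% of the p53 list was called in siNeg, against 29.2% of all genes.

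**Figure D4:**
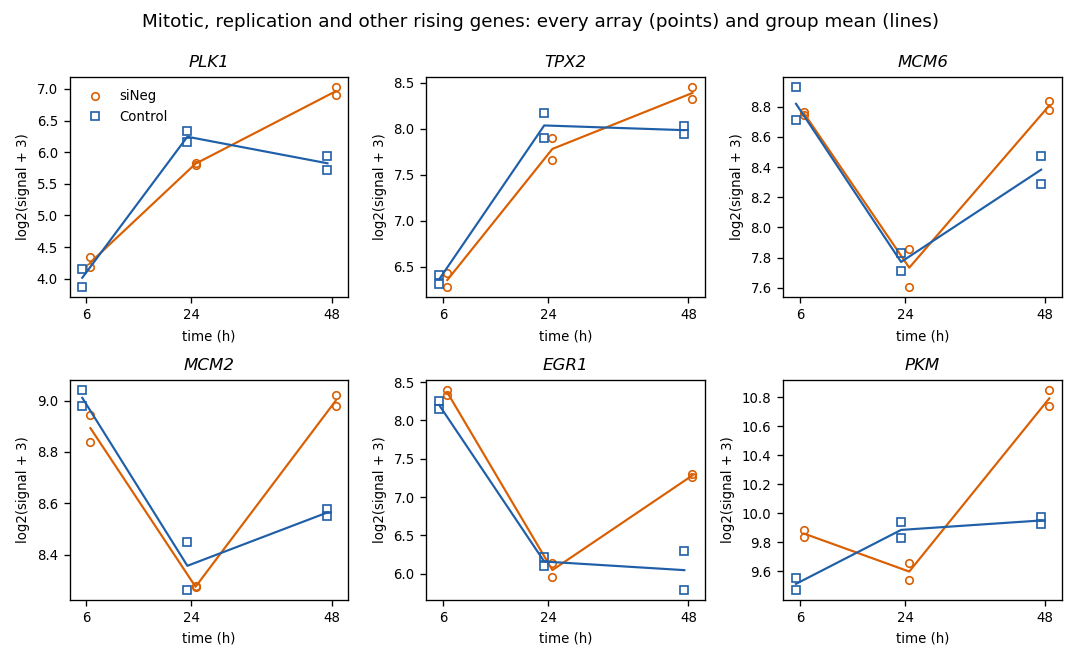
Log2 of signal plus 3 of 6 genes that rose in siNeg between 24 h and 48 h, at 6, 24 and 48 h in siNeg (orange circles) and Control (blue squares), with every array as a point, lines through the group means and points set slightly apart in time. At 48 h both siNeg arrays lie above both Control arrays in each gene, and PLK1 reaches 7.03 and 6.90 in siNeg.

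Part of the interferon-induced genes fell in siNeg. Of 38 measured members 10 fell and 2 rose in siNeg, against 2 and 6 in Control. The share called in siNeg, 31.6%, was near the 29.2% of all genes (13.6% higher and 15.6% lower). IFI27, an interferon-responsive mitochondrial protein, read 7.35 and 7.27 at 24 h and 6.27 and 6.16 at 48 h in siNeg, while Control went from 7.05 and 7.11 to 7.61 and 7.56, a difference of -1.60 (adjusted p = 5.03e-07). The class I antigen-presenting genes HLA-B, HLA-C and HLA-F, similar copies whose probe sets may read each other, fell by 0.92, 0.63 and 1.01, and the difference for HLA-F was -0.71 (adjusted p = 0.00721). Other HLA-F probe sets did not pass for the difference. IFI44 rose by 0.55 and GBP1 by 0.67, and GBP1 was not called without siNeg 24 h replicate 1 (0.59) or siNeg 48 h replicate 1 (0.48). Their other probe sets changed by 0.139 for IFI44 (adjusted p = 0.722) and 1.208 for GBP1 (adjusted p = 0.000133). The difference was more negative in siNeg for 8 and more positive for 0, and for 3 without siNeg 24 h replicate 1 or Control 48 h replicate 2 and 4 to 5 without any other 1 of these 8 arrays.

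Among inflammatory genes 8 of 25 fell and 2 rose in siNeg, where 15.6% and 13.6% of all genes did, and 6 fell and 6 rose in Control. The difference was more negative in siNeg for 7 and more positive for 1, and the 7 became 1 to 4 on leaving out any 1 of the 8 arrays (1 without siNeg 24 h replicate 1 or Control 24 h replicate 2). The cytokine IL11 went from 9.55 and 9.68 to 8.57 and 8.45 and IL6 from 6.70 and 6.67 to 5.36 and 5.47, and both fell in Control by 0.95 and 0.94. BIRC2, an inhibitor of cell death, fell by 0.96. TNFAIP2, a TNF-induced gene, rose from 6.32 and 6.29 to 7.58 and 7.62, with a difference of 0.997 (adjusted p = 0.000773). The chemokine CCL2 rose by 0.57 in siNeg and by 1.07 in Control.

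Many genes of energy supply rose in both cultures. Subunits of oxidative phosphorylation were higher in 25 of 55 and lower in 0, with a median of 0.19, against 29 and 0 in Control, where the median was 0.22. CYC1, of complex III, rose in siNeg by 0.53, ATP5F1B and ATP5F1D, of the ATP synthase, by 0.42 and 0.47, and UQCRC1 by 0.46. For UQCRC1 the difference from Control was 0.45, so its rise was not shared by Control. The count in siNeg was 12 without siNeg 24 h replicate 1 and 14 without siNeg 48 h replicate 1. PKM, pyruvate kinase, stood out among 34 hypoxia and glycolysis genes (9 higher, 9 lower, or 5 and 8 without siNeg 48 h replicate 1), rising from 9.66 and 9.54 to 10.85 and 10.73 in siNeg while Control read 9.83 and 9.94 and then 9.93 and 9.97. Its difference was 1.13 (SE 0.10, adjusted p = 2.11e-06). That value is from the brighter of its probe sets, and the other, at a mean of 6.46, changed by -0.09 in siNeg (adjusted p = 0.695). GPI, another glycolytic enzyme, rose by 0.85, while VEGFA and the glucose transporter SLC2A3 fell by 0.82 and 1.37. Those falls are also of the brightest probe sets. The others changed by -0.018, -0.308 and -0.36 for VEGFA and by -0.273 and -0.451 for SLC2A3, none passing. With all arrays 45.5% of the oxidative phosphorylation list and 52.9% of the hypoxia and glycolysis list were called in siNeg, against 29.2% of all genes. In the oxidative phosphorylation list the difference was more positive in siNeg for 1 gene, UQCRC1, and more negative for 3. Ribosomal protein genes hardly moved, 1 of 41 being called.

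Of the 13 measured glial and glioma markers 5 rose and 2 fell, where 13.6% and 15.6% of all genes did. The largest rise was that of GFAP, a marker of mature astrocytes, from 2.05 and 2.38 to 4.19 and 3.9, all dim, and its call was lost without siNeg 24 h replicate 1 (1.66) or siNeg 48 h replicate 1 (1.68). NES, nestin, went from 8.46 and 8.46 to 9.44 and 9.22 in siNeg while Control read 8.75 and 8.89 and then 8.68 and 8.70, a difference of 0.998 (adjusted p = 3.54e-05). SOX2, a stem cell factor, went from 6.23 and 6.41 to 7.11 and 6.998, with a difference of 0.93 (adjusted p = 0.00512). FABP7, a radial glia fatty acid carrier, rose by 1.07 and by 0.74 in Control, where the difference did not pass. ALDH1A3 rose by 0.32 (0.23 and not called without siNeg 48 h replicate 1). Those that fell were GLUL (-0.31), not called without siNeg 24 h replicate 2 (-0.29) or siNeg 48 h replicate 2 (-0.26), and GJA1 (-0.19), not called without either siNeg 24 h replicate (-0.19 and -0.18) or without siNeg 48 h replicate 1 (-0.15). On leaving out that last array the markers counted 3 higher and 1 lower.

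Single genes outside these groups made up most of the largest rises. DHRS3, a retinaldehyde reductase, read 4.99 and 5.37 at 24 h and 7.29 and 7.29 at 48 h, a 4.32-fold rise (log2 change 2.11, SE 0.28, adjusted p = 2.11e-05). CCDC85B went from 4.73 and 4.74 to 6.63 and 6.69 and rose by 1.51 in Control too, but its other, dim probe set changed by -0.047 (adjusted p = 0.945). TNFSF4, the ligand OX40L, went from 5.60 and 5.73 to 7.32 and 7.42, METRN from 5.45 and 4.98 to 6.58 and 6.61, and SLC2A4RG from 4.61 and 4.88 to 6.02 and 6.21. PPDPF rose by 1.42, but it was not called without siNeg 24 h replicate 2 (1.29) or siNeg 48 h replicate 1 (1.19). The other 8 of the 14 largest rises were dim, with a mean over the 8 arrays under 4.61, the median of all probe sets: GFAP, FGGY, TRABD, NRGN, NRSN2, SHC2, REC8 and FABP4. Each of these 8 lost its call on leaving out at least 1 siNeg array. The calls of GFAP, FGGY, TRABD, NRGN, REC8 and FABP4 were lost without siNeg 24 h replicate 1 (0.98 to 1.66), those of NRSN2, SHC2 and FABP4 without siNeg 24 h replicate 2 (0.78 to 1.73), those of GFAP, TRABD, NRSN2, SHC2, REC8 and FABP4 without siNeg 48 h replicate 1 (1.22 to 1.68), and those of NRGN, NRSN2, SHC2, REC8 and FABP4 without siNeg 48 h replicate 2 (1.34 to 1.68).

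The falls outside the described groups included AGR2, a disulfide isomerase of secretory cells. It read 5.60 and 5.81 at 24 h and 3.99 and 4.18 at 48 h in siNeg, and 5.25 and 5.46 and then 5.67 and 5.37 in Control, a difference of -1.78 (SE 0.19, adjusted p = 1.86e-05). RASSF8 (-2.12), LAMP3 (-1.94), GAL (-1.89), DEPP1 (-1.85) and INO80D (-1.78) also fell but were dim. Genes with the largest positive differences included TADA3, of histone acetyltransferase complexes, which rose by 0.98 in siNeg and fell by 0.52 in Control, C1QL1 (1.04 and -0.47), and the ligand WNT6 (0.71 and -0.78). The rise of WNT6 in siNeg was not called without siNeg 24 h replicate 2 (0.69) or siNeg 48 h replicate 1 (0.70).

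**Figure D5:**
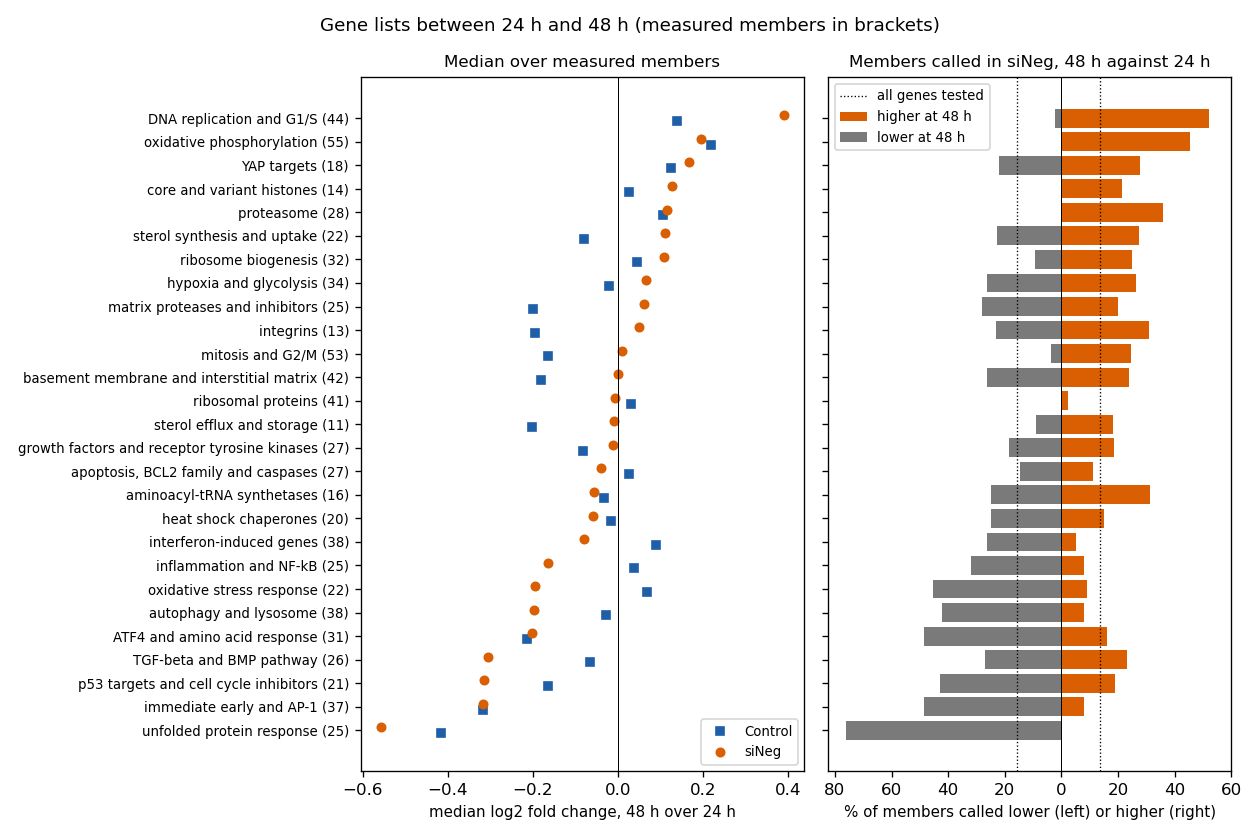
Left, the median log2 fold change from 24 h to 48 h over the measured members of each gene list in siNeg (orange circles) and Control (blue squares). Right, the percentage of members called higher (orange) or lower (grey) in siNeg, with dotted lines at 13.6% and 15.6% of all genes tested. Cell type marker lists are not plotted, and among the lists plotted the unfolded protein response has the lowest median and replication the highest in siNeg, and medians of the mitosis and matrix lists lie above those in Control.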

How the data were processed

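RNA of 18 samples was measured on 22277 Affymetrix probe sets. The authors made the deposited log2 values from MAS5 signals, per the submitters' processing notes for MAS5. No source states the log base, which was taken as log2 because the 2% trimmed mean of 2 to the power of each value lies between 100.122 and 100.134 in every array. The values were made linear, 3 was added (the 20th percentile of signals) and log2 taken. Controls and probe sets naming several genes (1043) or none (2108) were dropped, as was the dimmest 40%, and the brightest probe set per gene kept, 7828 genes. Symbols come from the platform annotation.

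Group means of all 9 groups were fitted with limma 3.58.1 (R 4.3.3), eBayes with an intensity trend, and the adjusted p is Benjamini-Hochberg over all genes. The script was tested on simulated data. The members and gene lists were chosen with earlier results of these data known. Named genes are the 14 largest called rises and falls with separated arrays, the 8 largest called differences each way among genes called in siNeg, and up to 4 members with the smallest p of each list plus those opposite to its trend. Replicate numbers were not treated as pairs in the main fit. Alternatives changed the pseudocount, scaling, filter, probe set rule, trend, samples fitted and block, or left out an array.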

Additional observations from a re-analysis of the deposited data

Results flagged for a closer look

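The change from 24 h to 48 h in siNeg differed from that in Control for 810 genes by a test of the difference itself. Among the genes named in the text, these differences (siNeg interval minus Control interval, log2) kept their call when any 1 of the 8 arrays was left out and were more positive in siNeg: PLK1 (1.56), C1QL1 (1.51), TADA3 (1.51), WNT6 (1.49), KIF4A (0.58), MCM2 (0.52), PKM (1.13), TNFAIP2 (0.997), EGR1 (1.35), FOSL1 (0.76), EFEMP1 (0.64), LOXL1 (1.04), COL6A1 (0.37), COL4A2 (0.78), FBLN1 (1.05), PLAU (0.45), PLAT (0.78), ADAM19 (0.48), MMP2 (0.90), NES (0.998) and SOX2 (0.93). COL6A1 lost its call after median centring, and no direction is settled for it. Other FBLN1 probe sets gave differences of 0.032 (adjusted p = 0.976) and 2.869 (adjusted p = 0.00649). The other probe sets of EFEMP1 (0.213, adjusted p = 0.291), PKM (0.585, adjusted p = 0.0833) and SOX2 (0.906, adjusted p = 0.208) did not pass for the difference. Those of EGR1, COL4A2 and PLAU did.

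Those that kept it and were more negative in siNeg were MMP10 (-0.90), ATF3 (-1.27), HMOX1 (-1.96), MMP1 (-1.13), DNAJB9 (-0.89), HERPUD1 (-0.73), WIPI1 (-0.81), DDIT3 (-0.80), RASSF8 (-2.07), C6orf15 (-3.06), AGR2 (-1.78), IFI27 (-1.60), AKR1C2 (-1.53), MANF (-0.42), CEBPB (-0.38), SLC38A2 (-0.42), CTSZ (-0.72), AKR1C1 (-1.52) and HLA-F (-0.71). For C6orf15 the change within siNeg was itself not called without siNeg 24 h replicate 1 (-1.42), siNeg 24 h replicate 2 (-1.58) or siNeg 48 h replicate 1 (-1.02). Each is smaller in size than its difference, which also takes in a higher Control level at 48 h than at 24 h. Other probe sets did not pass for the difference for CTSZ (0.005, adjusted p = 0.998), DNAJB9 (-0.678, adjusted p = 0.0571) and WIPI1 (-0.58, adjusted p = 0.169). Nor did those of HLA-F (-0.429 and 0.305), while those of AKR1C1, AKR1C2 and SLC38A2 did. CTSZ lost its siNeg call with the mean of its probe sets.

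The following differences were called with all arrays but lost that call when an array was left out, with the value without it.

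DHRS3 differed by 1.61, and was not called without Control 24 h replicate 2 (1.495), Control 48 h replicate 2 (1.495), siNeg 24 h replicate 1 (1.42) and siNeg 48 h replicate 1 (1.60). TNFSF4 differed by 0.67, and was not called without Control 24 h replicate 1 (0.59), Control 48 h replicate 1 (0.63) and siNeg 24 h replicate 1 (0.61). METRN differed by 0.92, and was not called without Control 24 h replicate 1 (0.86), Control 24 h replicate 2 (0.99), Control 48 h replicate 1 (0.85), Control 48 h replicate 2 (0.999), siNeg 24 h replicate 2 (0.69), siNeg 48 h replicate 1 (0.94) and siNeg 48 h replicate 2 (0.91). DDIT4 differed by -1.02, and was not called without Control 24 h replicate 2 (-0.89), Control 48 h replicate 1 (-0.82) and siNeg 24 h replicate 1 (-0.88). LAT2 differed by 1.95, and was not called without Control 24 h replicate 2 (1.64), Control 48 h replicate 1 (1.74), Control 48 h replicate 2 (2.16), siNeg 24 h replicate 2 (1.19) and siNeg 48 h replicate 1 (1.68). SSBP3 differed by 1.58, and was not called without Control 24 h replicate 2 (1.36), Control 48 h replicate 1 (1.34), siNeg 24 h replicate 1 (1.299) and siNeg 48 h replicate 1 (1.42). EHMT2 differed by 1.55, and was not called without Control 48 h replicate 2 (1.45), siNeg 24 h replicate 1 (1.22) and siNeg 48 h replicate 1 (1.36). INO80D differed by -1.62, and was not called without Control 24 h replicate 2 (-1.64), Control 48 h replicate 2 (-1.54) and siNeg 24 h replicate 1 (-1.52). TRIM9 differed by -1.57, and was not called without Control 24 h replicate 2 (-1.09), Control 48 h replicate 2 (-1.35), siNeg 24 h replicate 1 (-1.31), siNeg 48 h replicate 1 (-1.61) and siNeg 48 h replicate 2 (-1.53). TPX2 differed by 0.66, and was not called without Control 24 h replicate 1 (0.53), siNeg 24 h replicate 2 (0.54) and siNeg 48 h replicate 1 (0.60). PTTG1 differed by 0.46, and was not called without Control 48 h replicate 1 (0.37), siNeg 24 h replicate 1 (0.45) and siNeg 48 h replicate 1 (0.41). MCM6 differed by 0.46, and was not called without Control 24 h replicate 1 (0.40), Control 24 h replicate 2 (0.52), Control 48 h replicate 1 (0.37), siNeg 24 h replicate 2 (0.34), siNeg 48 h replicate 1 (0.49) and siNeg 48 h replicate 2 (0.43). HSP90B1 differed by -0.28, and was not called without Control 24 h replicate 1 (-0.30), Control 24 h replicate 2 (-0.26), Control 48 h replicate 1 (-0.28), Control 48 h replicate 2 (-0.28), siNeg 24 h replicate 1 (-0.24), siNeg 48 h replicate 1 (-0.31) and siNeg 48 h replicate 2 (-0.25). SLC7A5 differed by 0.37, and was not called without Control 24 h replicate 2 (0.31), siNeg 24 h replicate 1 (0.36) and siNeg 48 h replicate 1 (0.34). SLC1A5 differed by 0.77, and was not called without Control 24 h replicate 2 (0.60), Control 48 h replicate 2 (0.60), siNeg 24 h replicate 1 (0.77), siNeg 24 h replicate 2 (0.76) and siNeg 48 h replicate 2 (0.52). GPI differed by 0.42, and was not called without Control 24 h replicate 2 (0.35), Control 48 h replicate 1 (0.46), Control 48 h replicate 2 (0.38), siNeg 24 h replicate 1 (0.40), siNeg 24 h replicate 2 (0.44) and siNeg 48 h replicate 1 (0.35). GLA differed by -0.41, and was not called without Control 24 h replicate 1 (-0.33) and Control 48 h replicate 2 (-0.37). BIRC2 differed by -0.43, and was not called without Control 24 h replicate 2 (-0.38), Control 48 h replicate 1 (-0.33), siNeg 24 h replicate 1 (-0.39), siNeg 24 h replicate 2 (-0.46), siNeg 48 h replicate 1 (-0.47) and siNeg 48 h replicate 2 (-0.38). CCL2 differed by -0.50, and was not called without Control 24 h replicate 1 (-0.51), Control 24 h replicate 2 (-0.49), Control 48 h replicate 2 (-0.44), siNeg 24 h replicate 1 (-0.43) and siNeg 48 h replicate 2 (-0.39). HLA-B differed by -0.49, and was not called without siNeg 24 h replicate 1 (-0.44). HLA-C differed by -0.30, and was not called without Control 24 h replicate 1 (-0.23), Control 48 h replicate 1 (-0.29), Control 48 h replicate 2 (-0.30), siNeg 24 h replicate 1 (-0.30), siNeg 24 h replicate 2 (-0.29), siNeg 48 h replicate 1 (-0.33) and siNeg 48 h replicate 2 (-0.26). MAFF differed by -0.32, and was not called without Control 24 h replicate 2 (-0.26), Control 48 h replicate 1 (-0.28), Control 48 h replicate 2 (-0.37), siNeg 24 h replicate 1 (-0.32), siNeg 24 h replicate 2 (-0.33), siNeg 48 h replicate 1 (-0.29) and siNeg 48 h replicate 2 (-0.36). LAMA4 differed by 0.69, and was not called without Control 24 h replicate 1 (0.47), Control 48 h replicate 2 (0.58), siNeg 24 h replicate 1 (0.65) and siNeg 48 h replicate 2 (0.62). LAMA5 differed by 0.69, and was not called without Control 48 h replicate 2 (0.61), siNeg 24 h replicate 2 (0.49) and siNeg 48 h replicate 1 (0.65). UQCRC1 differed by 0.45, and was not called without Control 24 h replicate 2 (0.41), siNeg 24 h replicate 2 (0.41) and siNeg 48 h replicate 1 (0.33). XBP1 differed by -0.61, and was not called without siNeg 48 h replicate 1 (-0.49).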

How the results depend on the processing

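Directions of all named genes called in siNeg held under the alternatives run, except SCD (0.27) and PSMD11 (-0.002) with the mean of a gene's probe sets and IGF1R (0.399) with only the compared groups fitted. The probe sets of these genes differ in direction. The brightest changed by -0.254, 0.22 and -0.464 for SCD, PSMD11 and IGF1R, and the others by 0.492 and 0.573, by -0.223 and by 0.399. Of 206 named genes called in siNeg, 134 kept their call under every alternative other than a 2-fold minimum, and of 89 called in the difference, 47 did. With a 2-fold minimum the calls were 175 in siNeg, 76 in Control and 124 in the difference, and without the intensity trend the difference had 526. Leaving out 1 array gave 1461 to 2287 calls in siNeg, 807 to 1569 in Control and 396 to 784 in the difference, with fewer samples fitted. Median centring changed the split of the difference to 265 higher and 567 lower. Same-numbered arrays of the compared groups correlated from -0.116 to 0.045 in their deviations over 6 pairs. No strong shared deviation was seen, but this cannot show whether the numbers pair samples, which the labels do not say. With the replicate block the calls were 2280, 1509 and 788. With 2 arrays a group, the number of arrays limits the precision, and low probe sets lie near background.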
